A study of Sus scrofa with 23 samples.

Results

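Kininogen 1 (KNG1), carboxypeptidase N subunit 1 (CPN1) and angiotensinogen (AGT) were followed in articular cartilage of pigs with and without osteochondrosis. They are 3 of the 6765 genes named on the array. All probe sets whose only platform symbol is 1 of the 3 were taken, which gave 7 of the 24123 probe sets on the array: 4 for KNG1, 2 for CPN1 and 1 for AGT. Of these, 5 passed the filter on low values that left 16799 probe sets for the tests (2 of KNG1, both of CPN1 and that of AGT). KNG1 was put forward because of its call between affected and non-affected femur, and all 3 genes with their levels at both sites known. Those contrasts are therefore given as descriptions, without a test.

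KNG1 and AGT encode precursors, and CPN1 encodes an enzyme that acts on what is released from the first of them. Kallikreins cut kininogen, a plasma protein made mainly by the liver, and set free bradykinin, a peptide that widens vessels, makes them leaky and causes pain. The catalytic subunit of carboxypeptidase N removes the last basic residue of kinins and of complement anaphylatoxins in plasma. Angiotensinogen is cut to angiotensin I, from which angiotensin-converting enzyme (ACE) makes angiotensin II. ACE also degrades bradykinin, so that both systems share an enzyme.

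In osteochondrosis, cartilage of a young joint is not replaced by bone in the usual order. The animals were affected and non-affected sib-pairs from a cross of Duroc and Pietrain pigs, and total RNA was hybridised to the Affymetrix Porcine Genome Array. The groups were affected and non-affected femur (condylus medialis femoris, the inner knuckle of the thigh bone at the knee) and affected and non-affected humerus (medial part of condylus humeri, at the elbow). Age, sex and the make-up of the sib-pairs were not stated in the labels. Nor do they say whether each array stands for its own animal, so a p-value covers just the spread among these samples, which may be technical.

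There were 23 arrays: 4 of affected and 5 of non-affected femur, and 8 of affected and 6 of non-affected humerus. A pair of arrays in affected humerus (5 and 6) and one in non-affected femur (1 and 2) were nearly alike, with a standard deviation of their differences over probe sets of 0.108 and 0.214, and each pair was averaged and counted as 1 sample. The 21 samples were thus 4 affected and 4 non-affected of femur, and 7 affected and 6 non-affected of humerus. Values are on a log2 scale with a floor at 4, and a probe set's level can be compared between samples but not with that of another probe set. Array medians were between 6.05 and 6.17 in femur and between 6.18 and 6.33 in humerus, without overlap. The cartilage genes ACAN, COL2A1 and COMP were high in every group, and the 7 chondrocyte markers on the array averaged 10.8 to 12.5 per sample.

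Sample 5 of non-affected humerus stood apart from the other humeral samples in CPN1 and AGT, where its values were in or above the femoral range. The standard deviation of its differences from other samples over the tested probe sets had a median of 0.593 against affected femur, 0.665 against non-affected femur, 0.809 against affected humerus and 0.669 against the other non-affected humeral samples. The single sample nearest to it was of affected humerus, at 0.509, and the nearest femoral sample was at 0.547. Hybridisation controls are transcripts added to the array mixture in known amounts. Those of sample 5 averaged 10.79, the highest of the humeral samples and below the lowest femoral sample, 11.63. The label was kept, and each result of KNG1, CPN1 or AGT that rests on this sample is given with and without it. Differences of the marker and pathway lists include it.

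The KNG1 probe set Ssc.18557.1.A1_at was higher in affected than in non-affected femur. The 4 affected femoral samples read 7.70, 8.31, 8.15 and 8.13. The 4 non-affected femoral samples read 7.06, 7.25, 7.04 and 7.41. Every affected sample lay above every non-affected one, with a gap of 0.28 between the nearest values. The means were 8.07 ± 0.26 in affected and 7.19 ± 0.18 in non-affected femur (SD, n = 4 each), a difference of 0.88 ± 0.16 (SE) or 1.84-fold. This is the contrast by which KNG1 was chosen. Over all tested probe sets 1.14% were called in it in either direction (limma, adjusted p under 0.05), and 3.01% had affected femur wholly above non-affected femur. Leaving out any single sample gave differences between 0.80 and 1.0.

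In the humerus the same probe set read 7.36 at the lowest, 7.66 at the median and 8.01 at the highest of the 7 affected samples. In the 6 non-affected samples the lowest, median and highest were 7.52, 7.72 and 8.12. The ranges lay almost on top of each other, and no difference was found: −0.10 ± 0.12 (SE), with a 95% interval from −0.36 to 0.16 and an adjusted p of 0.897 in limma. Without sample 5 the difference was −0.03. In this contrast 0% of all tested probe sets were called, with a smallest adjusted p of 0.641, while 1100 had an unadjusted p under 0.05. The status difference in femur exceeded that in humerus by 0.98 ± 0.20 (SE), which shares the femoral values that chose the gene and is a description. The group means ran from affected femur (8.07) over non-affected humerus (7.76) and affected humerus (7.66) to non-affected femur (7.19), and each neighbouring pair in this order overlapped. Non-affected femur lay wholly below non-affected humerus, as for 13.6% of all tested probe sets, with a difference of −0.57 ± 0.14 (SE), whereas affected femur exceeded affected humerus by 0.41 ± 0.14 (SE) with overlapping values.

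**Figure D1:**
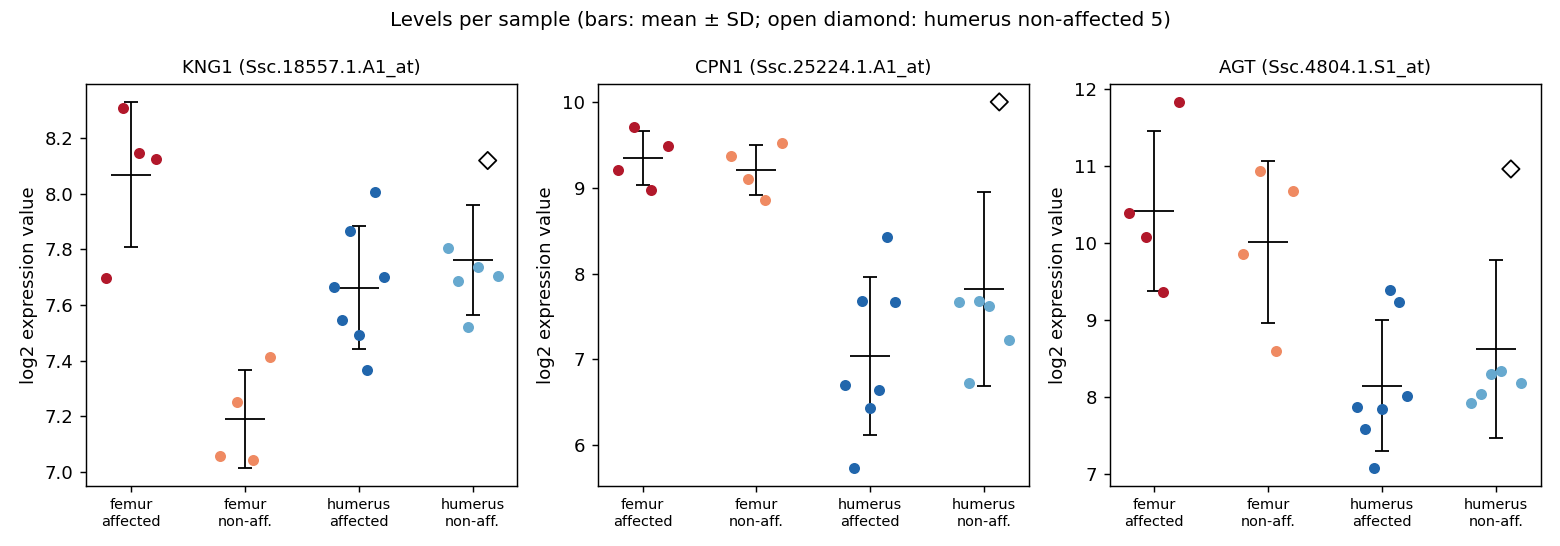
Log2 expression value of KNG1 (Ssc.18557.1.A1_at), CPN1 (Ssc.25224.1.A1_at) and AGT (Ssc.4804.1.S1_at) in each of the 21 samples by group, with bars for the mean ± SD; the vertical scales differ and do not start at 0. KNG1 separates affected from non-affected femur, CPN1 and AGT are higher in femur than in most humeral samples, and the open diamond marks sample 5 of non-affected humerus at 8.12, 10.01 and 10.96.

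The other 3 KNG1 probe sets did not share this pattern. Ssc.24401.1.A1_at read 5.51, 6.03, 5.69 and 5.79 in affected femur. It read 5.81, 5.78, 5.81 and 6.01 in non-affected femur. The femoral groups overlapped, with means of 5.75 ± 0.21 and 5.85 ± 0.10 (SD, n = 4 each) and a difference of −0.10 ± 0.14 (SE). Affected humerus had a lowest, median and highest value of 4.97, 5.05 and 5.41. Non-affected humerus had 4.98, 5.17 and 5.62. Status gave no call in the humerus either, where the difference was −0.11 ± 0.11 (SE; 95% interval −0.34 to 0.11, limma adjusted p = 0.864). Within each status the joints did not overlap. Affected femur lay wholly above affected humerus, by 0.64 ± 0.12 (SE), and non-affected femur wholly above non-affected humerus, by 0.62 ± 0.13 (SE). Such a separation with femur above was found for 7.33% of all tested probe sets in affected and 7.55% in non-affected cartilage. The probe set passed the filter at 5.30 through its femoral values, since both humeral means (5.12 in affected and 5.23 in non-affected humerus) lay below it, so nothing is read from this comparison of shares.

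The remaining KNG1 probe sets, Ssc.24401.1.A1_s_at and Ssc.18557.1.S1_at, stayed below the filter, each with 6 of 23 arrays within 0.05 of the floor. Ssc.24401.1.A1_s_at was at 4.42 ± 0.30 in affected femur and at 4.72 ± 0.54 in non-affected femur (SD, n = 4 each). It averaged 4.21 ± 0.20 in affected (n = 7) and 4.30 ± 0.20 in non-affected humerus (n = 6). Its groups overlapped in every contrast. Ssc.18557.1.S1_at was at 4.28 ± 0.23 in affected femur and at 4.39 ± 0.39 in non-affected femur (SD, n = 4 each). It averaged 4.39 ± 0.26 in affected (n = 7) and 4.34 ± 0.24 in non-affected humerus (n = 6), again with overlap throughout. The platform annotation ties both Ssc.18557 probe sets to 1 source sequence and both Ssc.24401 probe sets to another, so the 4 are not independent readings. Over the 21 samples, the probe set with the femoral difference correlated with the other 3 at r = 0.06 for Ssc.18557.1.S1_at, −0.02 for Ssc.24401.1.A1_at and −0.28 for Ssc.24401.1.A1_s_at. The femoral status difference of KNG1 thus rested on 1 of its 4 probe sets. The files do not say what A1 and S1 in the probe set names stand for, or which strand each probe set reads, so it was not settled that all 4 read KNG1 messenger RNA.

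**Figure D2:**
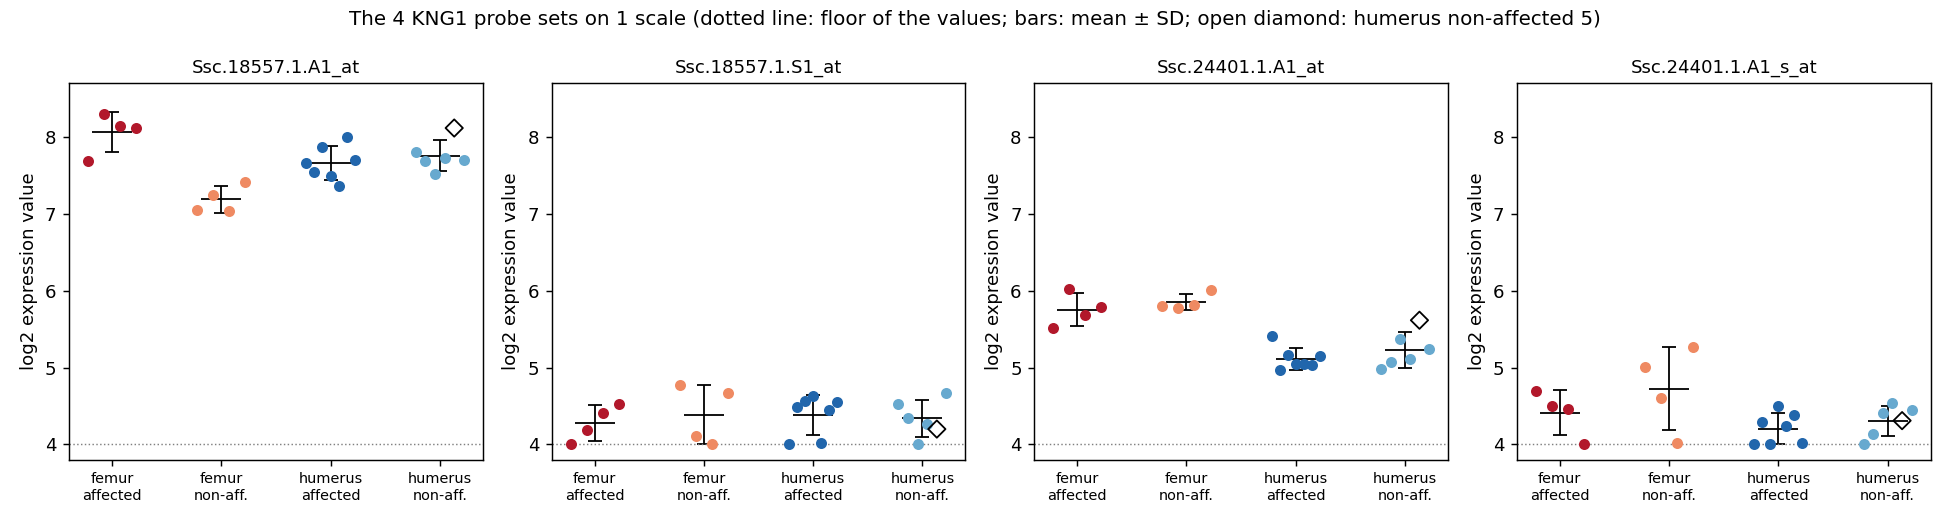
Log2 expression value of the 4 KNG1 probe sets in each of the 21 samples by group on 1 shared scale, with the mean ± SD and a dotted line at the floor of 4. Of the 4 panels, that of Ssc.18557.1.A1_at alone has affected femur wholly above non-affected femur, and 2 panels lie close to the floor.

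Macrophage and chondrocyte markers each leaned in 1 direction between the femoral groups that chose KNG1, without a call. Over all tested probe sets 1.14% were called in this contrast, so that counts of 0 are not read as a lack of change. The 7 macrophage markers on the array averaged 4.62 to 6.44 per sample in affected femur and 6.23 to 8.22 in non-affected femur, all 7 had negative differences, and 0 were called (limma). The 7 chondrocyte markers averaged 11.99 to 12.47 in affected femur and 11.36 to 11.94 in non-affected femur, all 7 with positive differences and 0 called. The part of either in the KNG1 difference was not tested. In tissue RNA, fewer cells of a type and less RNA per cell cannot be told apart. Among liver genes, albumin (ALB), the main plasma protein, was at 4.72 ± 0.56 in affected femur and at 4.27 ± 0.29 in non-affected femur (SD, n = 4 each), and its probe set stayed below the filter. Of 13 tested genes of the hepatocyte and plasma protein list, 0 were called for status at either site, beside 0% of all tested probe sets in humerus. Haptoglobin (HP) was at 4.33 in affected femur and at 7.14 in non-affected femur, a difference of −2.81 ± 0.78 (SE, limma adjusted p = 0.0758), and apolipoprotein A1 (APOA1) had a difference of −2.62 ± 0.96 (SE, limma adjusted p = 0.147). The differences of RBP4 (−1.23) and C3 (−1.10) were negative too, and 6 of the 13 were positive, with a list median of −0.08.

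CPN1 was higher in femur than in humerus on both of its probe sets, and its level did not pass the test for status at either site. On Ssc.25224.1.A1_at the affected femoral samples read 9.21, 9.71, 8.98 and 9.49. The affected humeral samples read 5.73 at the lowest, 6.70 at the median and 8.43 at the highest, all below the femoral ones. Affected femur lay wholly above affected humerus in 7.33% of all tested probe sets. The means were 9.35 ± 0.32 in affected femur (SD, n = 4) and 7.04 ± 0.92 in affected humerus (SD, n = 7), a difference of 2.31 ± 0.49 (SE) or 4.96-fold. In non-affected cartilage the femoral samples read 9.37, 9.10, 8.85 and 9.52. The non-affected humeral samples read 6.72 at the lowest, 7.65 at the median and 10.01 at the highest, the last being sample 5. The difference was 1.39 ± 0.50 (SE) with sample 5, which alone made the groups overlap, and 1.83 without it. Over all tested probe sets 38.5% were called between femur and humerus in affected and 36.6% in non-affected cartilage, so a site difference was common on this array.

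The second CPN1 probe set, Ssc.25224.2.S1_at, gave the same order with a smaller difference. It read 7.84, 7.79, 7.18 and 8.13 in affected femur. In affected humerus its lowest, median and highest values were 5.50, 6.12 and 6.85, again wholly below femur, and the difference was 1.54 ± 0.38 (SE). In non-affected femur it read 7.90, 7.64, 7.20 and 8.29. Non-affected humerus had 6.10, 6.53 and 8.75 as lowest, median and highest. The difference was 0.96 ± 0.39 (SE), and 1.35 without sample 5. The probe sets of CPN1 moved together between samples, at r = 0.966 and rho = 0.907 over the 13 humeral samples (permutation p = 2e-05 and 1e-04, two-sided; adjusted over 9 relations 0.00018 and 0.0009). Over the 8 femoral samples r was 0.806 and rho 0.738 (exact permutation p = 0.0177 and 0.0458; adjusted 0.0266 and 0.0762). Without the 2 samples farthest from the median r was 0.988 in humerus and 0.960 in femur.

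Status differences of CPN1 were smaller than the spread between samples. On Ssc.25224.1.A1_at, affected femur averaged 9.35 ± 0.32 and non-affected femur 9.21 ± 0.29 (SD, n = 4 each), with a difference of 0.14 ± 0.55 (SE; 95% interval −1.01 to 1.28, limma adjusted p = 0.908). On Ssc.25224.2.S1_at the femoral difference was −0.02 ± 0.43 (SE; 95% interval −0.91 to 0.86, limma adjusted p = 0.982). In the humerus, affected samples averaged 7.04 ± 0.92 (n = 7) and non-affected samples 7.82 ± 1.13 (n = 6) on Ssc.25224.1.A1_at. The humeral difference was −0.78 ± 0.43 (SE; 95% interval −1.68 to 0.12, limma adjusted p = 0.768) with sample 5, and −0.34 without it. On Ssc.25224.2.S1_at it was −0.60 ± 0.33 (SE; 95% interval −1.29 to 0.10, limma adjusted p = 0.768), and −0.21 without sample 5. A single sample thus carried most of the humeral difference on both probe sets. The status effects of femur and humerus were not shown to differ, with 0.92 ± 0.70 (SE, limma adjusted p = 0.467) and 0.57 ± 0.54 (SE, limma adjusted p = 0.562) on the first and second probe set, and 0.48 and 0.18 without sample 5. In that comparison 0.268% of all tested probe sets were called.

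AGT was also higher in femur, and it varied more within the femur than CPN1 did. The affected femoral samples read 10.40, 10.08, 9.36 and 11.83. In affected humerus the lowest, median and highest values were 7.09, 7.87 and 9.39, so that the groups overlapped by a sliver at 9.36 and 9.39. Affected femur averaged 10.42 ± 1.04 (SD, n = 4) and affected humerus 8.15 ± 0.85 (SD, n = 7), a difference of 2.27 ± 0.59 (SE) or 4.82-fold. The non-affected femoral samples read 9.86, 10.94, 8.60 and 10.67. Non-affected humerus had 7.92, 8.24 and 10.96 as lowest, median and highest, and sample 5 was its highest. The difference was 1.39 ± 0.60 (SE), and 1.86 without sample 5, whereupon all 4 femoral values exceeded the 5 humeral ones, which then averaged 8.16 ± 0.18 (SD). It was also 1.86 without sample 4 of non-affected femur, the lowest of that group.

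For AGT, too, no status difference passed the test. In femur it was 0.40 ± 0.66 (SE; 95% interval −0.97 to 1.78, limma adjusted p = 0.766). The sign of this value turned when sample 4 of either femoral group was left out, to −0.07 each time. In the humerus the difference was −0.47 ± 0.52 (SE; 95% interval −1.56 to 0.61, limma adjusted p = 0.882), and −0.01 without sample 5. The status effect in femur minus that in humerus was 0.88 ± 0.84 (SE, limma adjusted p = 0.570), and 0.41 without sample 5. The intervals leave room for status differences of more than 1 log2 unit in AGT and CPN1, so that these arrays limit what can be said of them.

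**Figure D3:**
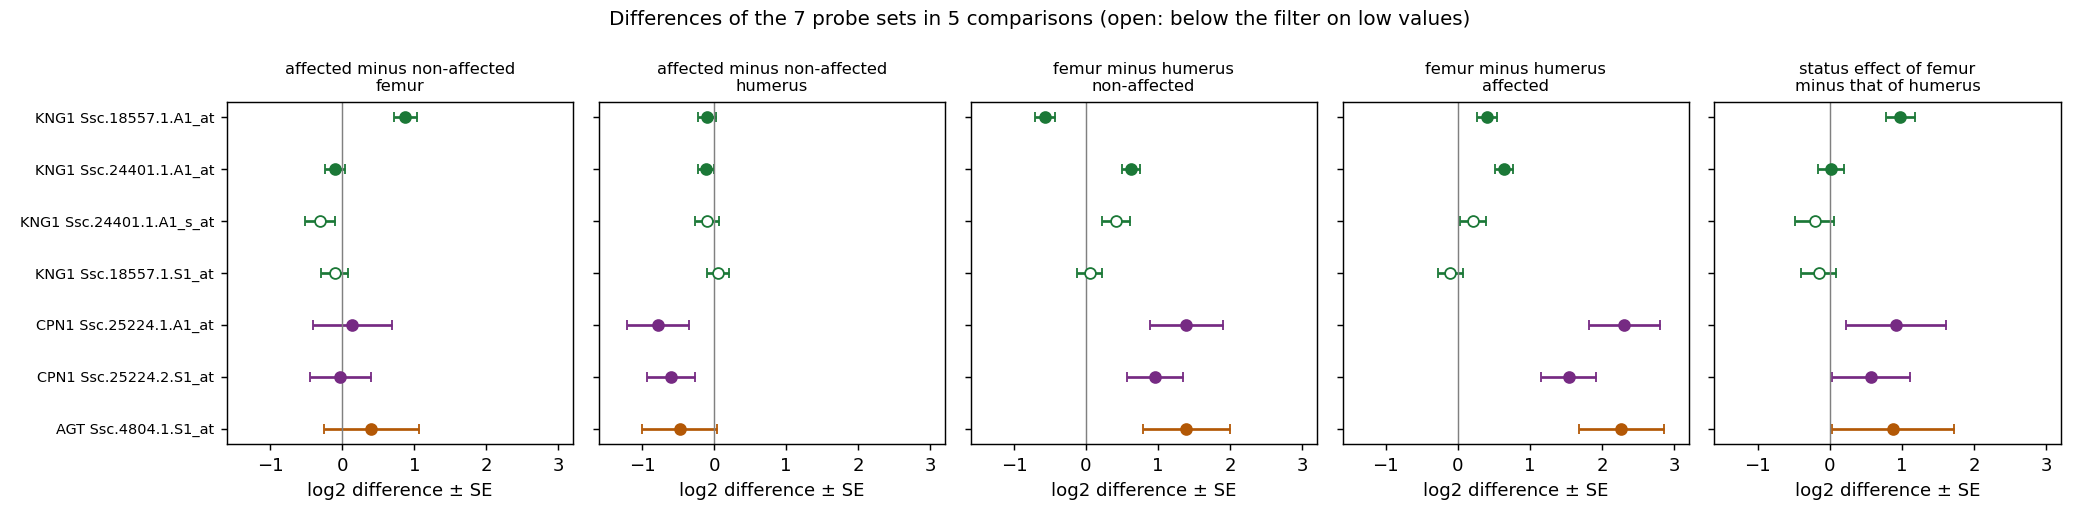
Log2 difference ± SE of the 7 probe sets in 5 comparisons, with filled points for probe sets that passed the filter on low values and open points for those below it. CPN1 and AGT lie to the right of 0 in both femur minus humerus panels, and Ssc.18557.1.A1_at is the KNG1 probe set that stands off from 0 in the femoral status panel, at 0.88.

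Several measures moved with joint in the same samples. The hybridisation controls (27 probe sets), which carry no cartilage RNA, averaged 11.72 ± 0.06 in the 8 femoral samples and 10.66 ± 0.09 in the 13 humeral samples (SD), without overlap. Controls added before labelling (39 probe sets) averaged 9.01 ± 0.13 in femur and 9.02 ± 0.21 in humerus. The site and the level of the hybridisation controls cannot be told apart in this design. The median difference of all tested probe sets was −0.11 between femur and humerus in affected and −0.12 in non-affected cartilage. With all arrays brought to 1 distribution by quantile normalisation these medians were 0.04 and 0.04. The share of site calls with femur higher then moved to 57.1% in affected cartilage, against 36% as deposited, and to 55.1% in non-affected cartilage, against 31.6% as deposited. The site differences of the 5 member probe sets that passed the filter kept their direction. CPN1 on Ssc.25224.1.A1_at lay between 2.16 and 2.47 in affected cartilage over the alternative settings, and AGT between 2.11 and 2.43.

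In affected cartilage, markers of several other cell types were lower in femur, where CPN1 and AGT were high. Of all tested probe sets, 24.6% were called lower and 13.9% higher in femur in affected cartilage, and 25% and 11.6% in non-affected cartilage. The 7 macrophage markers averaged 4.62 to 6.44 per sample in affected femur and 7.18 to 9.71 in affected humerus, and all 7 were called lower in femur (limma). In non-affected cartilage they averaged 6.23 to 8.22 in femur and 5.63 to 9.08 in humerus, with 0 called. Other lists did have calls there: 2 of 6 bone markers (IBSP, by −6.10, and ALPL, by −4.49), 2 of 4 smooth muscle, 1 of 3 erythroid and 1 of 5 adipocyte markers were lower in femur, and 2 adipocyte markers and 1 of 5 skeletal muscle markers were higher. IBSP was within 0.05 of the floor in 2 of 4 non-affected femoral samples, and ALPL in 1 of 4. Sample 5 of non-affected humerus read 6.41 in IBSP and 4.64 in ALPL, where its group averaged 11.62 and 10.30 with it. Counts near the shares over all tested probe sets, such as 2 of 6, 1 of 3 and 1 of 5, are not read as a result. The smooth muscle gene CNN1 averaged 4.52 in non-affected femur and 7.18 in non-affected humerus. It passed the filter at 5.30 through its humeral values, which favoured a lower call, so nothing is read from 2 of 4 either. Of the 7 chondrocyte markers, 3 were called lower in non-affected femur (ACAN, COL11A1 and HAPLN1), and 3 were called higher in affected femur. Differences were positive for 2 of the 7 in non-affected and for 5 in affected cartilage. ACAN and HAPLN1 had lower means in femur in both states, and SOX9 and CILP had higher ones in both. COL11A1 changed direction, with means of 10.41 in affected femur and 10.26 in affected humerus. The 5 tested skeletal muscle markers were all positive in non-affected cartilage, with a median difference of 1.80, and 4 were positive in affected cartilage, with a median of 1.26 and 0 called. In affected cartilage the 5 endothelial markers averaged 4.46 to 6.73 in femur and 7.05 to 8.52 in humerus, and the 4 tested were all called lower. Of the neutrophil markers 5 of 6 and of the bone markers 4 of 6 were called lower there. The neutrophil markers S100A8, S100A12, ELANE and LTF averaged 4.76, 4.67, 4.52 and 4.78 in affected femur. These means, and that of PR39, lay below the filter at 5.30, passed through the humeral values. LTF was within 0.05 of the floor in 3 of 4 affected femoral samples. Nothing is read from the neutrophil count. The affected femoral means of C1QA, FCER1G, AIF1, TYROBP, CDH5, VWF and TEK also lay below the filter, which favoured lower calls. Sample 5 of non-affected humerus, high in CPN1 and AGT, had the lowest humeral values of the macrophage and endothelial lists, 5.63 and 5.52. It was also the lowest humeral sample of the adipocyte and bone lists, at 5.87 and 6.87. The part of these markers in the site differences was not tested.

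Within the humerus, where the members were not chosen by joint, CPN1 on Ssc.25224.1.A1_at was low in samples with high macrophage markers. Over 13 samples r was −0.882 and rho −0.802 (permutation p = 0.00016 and 0.0017; adjusted 0.00072 and 0.0051). It was −0.834 without the 2 samples farthest from the median, and −0.777 without sample 5. With endothelial markers r was −0.759 and rho −0.769 (permutation p = 0.00622 and 0.00304; adjusted 0.014 and 0.00684), and r fell to −0.517 without sample 5. With the chondrocyte markers r was 0.624 and rho 0.560 (permutation p = 0.00976 and 0.0508; adjusted 0.0176 and 0.0762). Among these lists, CPN1 stood higher in humeral samples with more chondrocyte and fewer macrophage transcripts. For the chondrocyte list only r, not rho, passed the adjusted threshold. Relations of CPN1 with the remaining cell type lists, such as bone and adipocyte, were not tested, so nothing particular to macrophages is read from this. The permutations for all relations pooled affected and non-affected samples of a joint and took no account of status. Status differences in humerus were positive for 7 of 7 macrophage and 0 of 7 chondrocyte markers, and −0.78 for CPN1 (0 called). The part of status in these relations was not tested.

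CPN1 and KNG1 on Ssc.18557.1.A1_at also ran together in the humerus. Over 13 samples r was 0.825 and rho 0.797 (permutation p = 0.00068 and 0.00168; adjusted 0.00204 and 0.0051), with r of 0.744 without the 2 farthest samples and 0.713 without sample 5. The other KNG1 probe sets were not tested against CPN1. Their humeral r with it was 0.592 for Ssc.24401.1.A1_at. It was 0.045 for Ssc.24401.1.A1_s_at and −0.097 for Ssc.18557.1.S1_at, both below the filter, so the relation was not shared by all KNG1 probe sets. CPN1 and AGT had r of 0.691 and rho of 0.390 (permutation p = 0.0325 and 0.186; adjusted 0.0418 and 0.239). That relation rested on the samples at the ends, since r was 0.123 without the 2 farthest samples and 0.264 without sample 5. In the 8 femoral samples CPN1 and AGT had r of 0.574 and rho of 0.50 (exact permutation p = 0.136 and 0.216; adjusted 0.153 and 0.243), and r was 0.573 without the 2 farthest samples. AGT and KNG1 on Ssc.18557.1.A1_at had r of 0.410 and rho of 0.198 in the humerus (permutation p = 0.184 and 0.514; adjusted 0.184 and 0.514). With AGT, the second CPN1 probe set, Ssc.25224.2.S1_at, had r of 0.764 over the femoral and 0.753 over the humeral samples, given as a description. With KNG1 on Ssc.18557.1.A1_at, the second CPN1 probe set had r of 0.060 over the femoral and 0.799 over the humeral samples. The first CPN1 probe set had r of 0.430 with KNG1 over the femoral samples, and these values are descriptions too. The tests of all 9 relations were two-sided.

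**Figure D4:**
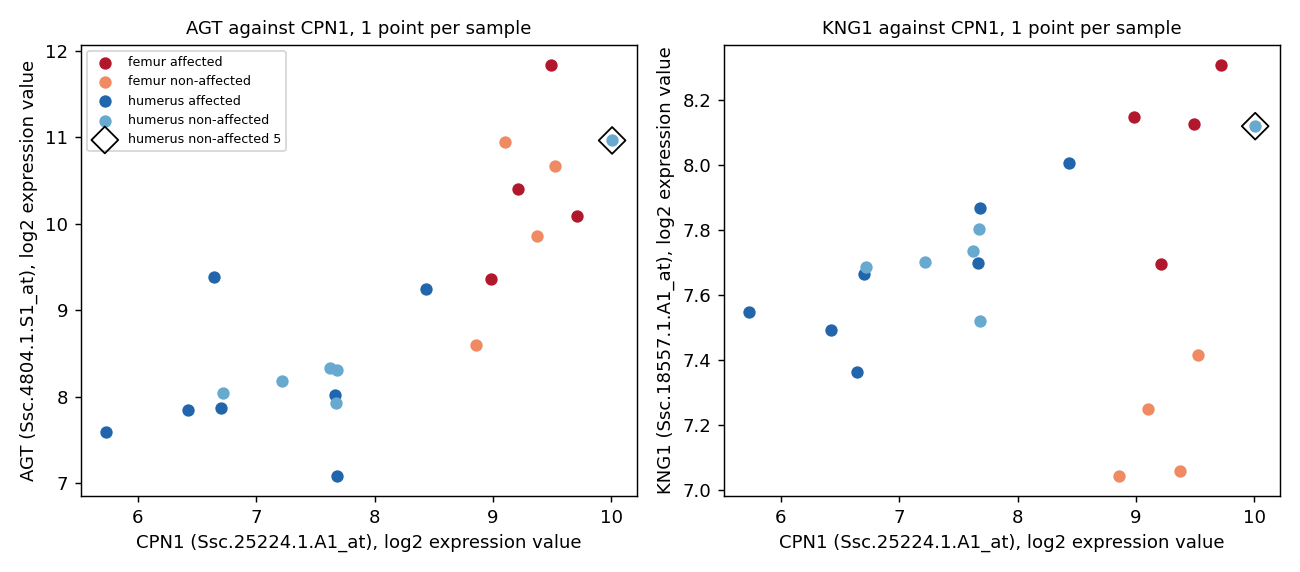
AGT (Ssc.4804.1.S1_at, left) and KNG1 (Ssc.18557.1.A1_at, right) against CPN1 (Ssc.25224.1.A1_at) as log2 expression values, 1 point per sample and 1 colour per group. Sample 5 of non-affected humerus (diamond) lies among the femoral points on the left, and on the right the humeral points rise together (r = 0.825, n = 13) while the non-affected femoral points lie at high CPN1 with KNG1 between 7.04 and 7.41, below all but the lowest humeral point.

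The other genes of the kinin system, from a list of 18 beside KNG1 and CPN1, were represented by 12 genes on the array, 9 of which were tested. The kallikreins that release kinins, KLKB1 (plasma) and KLK1 (tissue), and the aminopeptidase XPNPEP2 stayed below the filter. The kinin receptors BDKRB1 and BDKRB2 and the second carboxypeptidase N subunit CPN2 were not analysed here. Of the 9 tested genes, 0 were called for status in femur, with a median difference of −0.09 against 0.01 for all tested probe sets. Also 0 were called in humerus, with a median of 0.11 against −0.01. Of all tested probe sets 1.14% were called for status in femur and 0% in humerus, so these counts are not read as a lack of change. SERPING1, the inhibitor of C1 and of plasma kallikrein, was at 8.63 in affected femur and at 9.87 in non-affected femur, a difference of −1.24 ± 0.57 (SE) that did not pass the test (limma adjusted p = 0.229).

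Between joints, some kinin-degrading enzymes moved one way and some the other. In affected cartilage 2 of the 9 were higher in femur and 4 lower, where 13.9% and 24.6% of all tested probe sets were called higher and lower. The endothelin-converting enzyme ECE1, which also cleaves bradykinin, was higher by 0.54 ± 0.11 (SE, limma adjusted p = 0.000877), and ACE by 0.37 ± 0.10 (SE, limma adjusted p = 0.00671). SERPING1 fell by 2.50 ± 0.51 (SE, limma adjusted p = 0.00093), and the carboxypeptidases CPD and CPM, which trim basic residues at the cell, had differences of −0.48 and −1.16. PRCP, a carboxypeptidase that activates plasma prekallikrein, fell by 1.24 ± 0.20 (SE, limma adjusted p = 0.000196). In non-affected cartilage 2 were higher (ECE1 and ACE) and 2 lower, CPD and the dipeptidyl peptidase DPP4, beside 11.6% and 25% of all tested probe sets. Under quantile normalisation or median centring DPP4 was not called, and the factor XII gene F12, which starts the contact system, was called higher. The DPP4 call was also lost without sample 1-2 or 4 of non-affected femur, or 3, 4 or 6 of non-affected humerus, and that of CPM without sample 2 or 4 of affected femur. Thus CPN1 stood higher in femur, while CPD stood lower there in both states and CPM in affected cartilage.

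The angiotensin list of 22 genes beside AGT had 11 on the array and 10 tested. The angiotensin II receptor AGTR2 was not analysed here. For status in femur 1 of the 10 was called, beside 1.14% of all tested probe sets. AGTRAP, which binds the angiotensin II receptor AGTR1 and favours its internalisation, was at 6.88 ± 0.28 in affected femur and at 7.71 ± 0.28 in non-affected femur (SD, n = 4 each), and the groups did not overlap; affected femur lay wholly below non-affected femur in 5.07% of all tested probe sets. The difference was −0.83 ± 0.19 (SE, limma adjusted p = 0.0394). This call was lost in 8 of 30 alternative settings, in which its adjusted p reached 0.198, and the difference stayed between −0.95 and −0.72. The call was lost without sample 3 or 4 of non-affected femur, sample 2 or 3 of affected femur, or sample 4 of affected humerus. In humerus 0 of the 10 were called, beside 0% of all tested probe sets.

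Between joints most of the tested angiotensin genes other than AGT were lower in femur in affected cartilage. There 1 rose (ACE) and 8 fell, where 13.9% and 24.6% of all tested probe sets were called higher and lower. The median difference was −0.72 against −0.11 for all tested probe sets. The aminopeptidases RNPEP and ANPEP, which trim angiotensins, had differences of −1.76 ± 0.25 (SE, limma adjusted p = 5.26e-05) and −2.60 ± 0.60 (SE, limma adjusted p = 0.00235). The protease cathepsin D (CTSD), a lysosomal enzyme that can also cut angiotensinogen, fell by 1.61 ± 0.38 (SE, limma adjusted p = 0.00282). In non-affected cartilage 2 rose (ACE and AGTRAP) and 4 fell (NLN, ATP6AP2, RNPEP and AGTR1), beside 11.6% and 25% of all tested probe sets. Under quantile normalisation 3 calls were left there, with ACE and AGTRAP higher and ATP6AP2 lower. AGTR1 was not called at either status, and RNPEP not in non-affected cartilage, once arrays were quantile normalised or median centred, and AGTRAP was then not called in affected cartilage. ATP6AP2, an accessory protein of the vacuolar proton pump, stayed called under both scalings in both states, while the neurolysin gene NLN lost its calls under quantile normalisation. With single samples left out, the RNPEP call in non-affected cartilage was lost without sample 5 of femur or 2 or 3 of humerus. The AGTRAP call there was lost without sample 3 or 4 of femur or 6 of humerus, and that of AGTR1 in 20 of 29 settings. In affected cartilage AGTRAP lost its call without sample 2 or 3 of femur or 1, 2 or 5-6 of humerus, and AGTR1 without sample 2 or 4 of femur. AGTR1 passed the filter at 5.30 through its humeral means, 6.04 in affected and 5.66 in non-affected cartilage. Its femoral means, 5.20 and 4.86, lay below the filter. Nothing is therefore read from the AGTR1 calls or from its place in the counts.

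**Figure D5:**
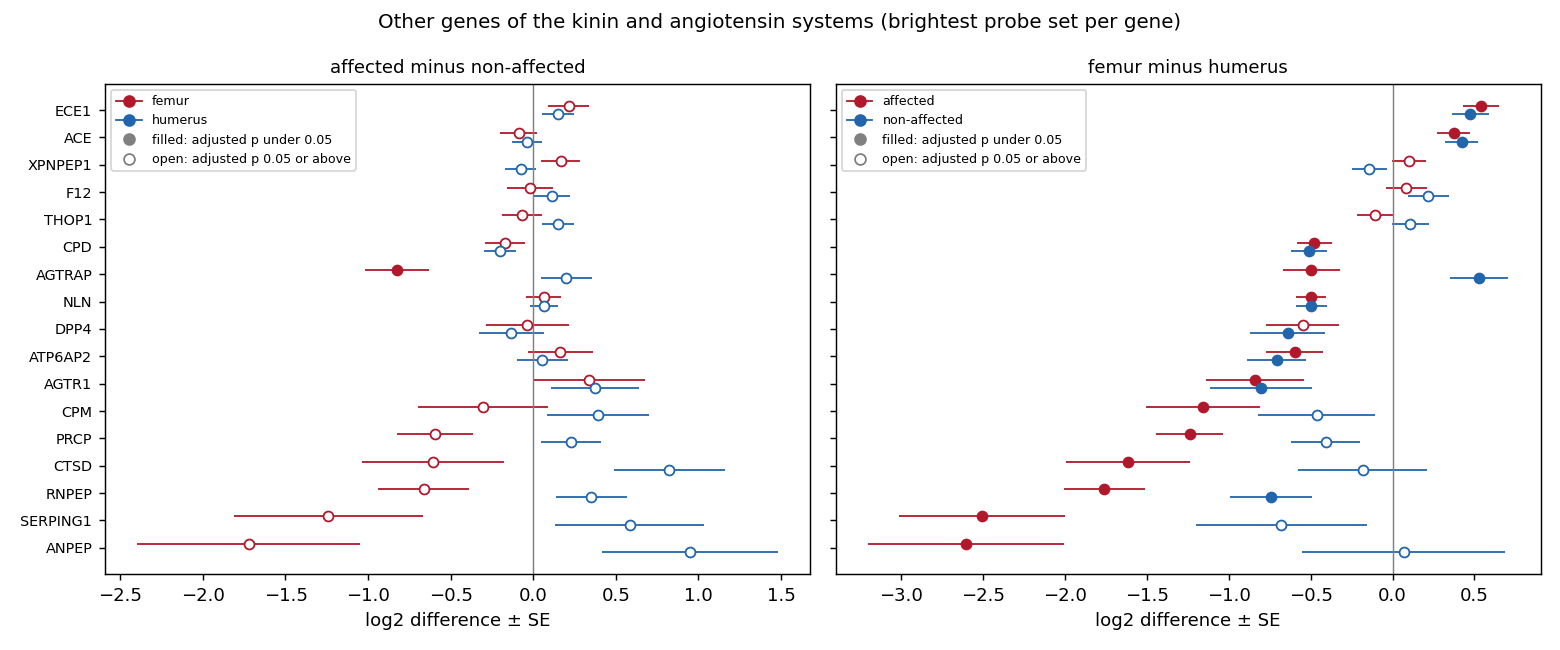
Log2 difference ± SE of the other tested genes of the kinin and angiotensin lists, for status (left, by joint) and for joint (right, by status), with filled points where the adjusted p was under 0.05. AGTRAP at −0.83 in femur is the single filled point on the left, and on the right ECE1 and ACE lie above 0 in both states.

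By Pearson correlation over the 21 samples with 8066 named probe sets of other genes, the nearest genes of each probe set were as follows. For KNG1 on Ssc.18557.1.A1_at these were the zinc finger gene PLAGL1 (r = 0.82), the hydroxylase JMJD6 (r = 0.82) and the seryl-tRNA synthetase SARS (r = 0.79). For KNG1 on Ssc.24401.1.A1_at they were the glycolytic PKM, the DNA repair gene NEIL1 (r = 0.92 each) and IGFBP5 (r = 0.91), a binding protein of insulin-like growth factors. No gene stood on both of these lists. The KNG1 probe sets below the filter were nearest to PUM2 (r = 0.72, Ssc.24401.1.A1_s_at) and SUPV3L1 (r = 0.60, Ssc.18557.1.S1_at). CPN1 on Ssc.25224.1.A1_at was nearest to the secreted sushi-repeat protein SRPX2 (r = 0.96), GEMIN5 (r = 0.95) and C4H1orf226 (r = 0.94). Ssc.25224.2.S1_at was nearest to C4H1orf226 (r = 0.93), GEMIN5 (r = 0.92) and IGFBP5 (r = 0.91), so that the CPN1 probe sets shared 2 of their 3 nearest genes. AGT was nearest to the splicing factor ZRSR2 (r = 0.91), the amino acid transporter SLC1A4 (r = 0.90) and the collagen gene COL5A1 (r = 0.90). The samples share joint, status and array scaling, which all enter such values.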

How the data were processed

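Total RNA of cartilage was labelled with biotin and hybridised to the Affymetrix Porcine Genome Array, per the labels' protocols. The deposited values are on a log2 scale, 1 per probe set and array. The submitters' processing notes name GCOS 1.1.1; how arrays were normalised is not stated there. Values run from 4.00 to 17.6 and were used as deposited. No counts exist for arrays, so the number of samples limits the precision.

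Gene names came from the platform annotation, which gave 1 symbol for 10099 probe sets, several for 198 and none for 13826. Left out were 124 controls and 7200 probe sets whose mean lay below 5.30, the 30th percentile. limma 3.58.1 (R 4.3.3) fitted the means of the 4 groups over 16799 probe sets, with Benjamini-Hochberg adjustment within each comparison and calls at an adjusted p under 0.05. A pair of arrays of 1 group was averaged where the standard deviation of their differences was under 0.25. Lists were read by the brightest probe set of each gene. Correlations were tested by permutation (scipy 1.17.1, numpy 2.4.6, Python 3.11.15, 100000 resamples, exact for 8 samples). Figures used matplotlib 3.10.9.

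All probe sets of the members are named, up to 5 genes of each pathway list per comparison by smallest p (others, such as CPM and AGTR1, were added after their values were seen), and 3 nearest genes per probe set. The members and lists were chosen with earlier results of these data known. Steps were tested on simulated data. Alternatives covered the filter, the scaling, the floor, the variance model, array weights, the samples in the fit, and each sample left out.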

Additional observations from a re-analysis of the deposited data

Results flagged for a closer look

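In 28 groups of 4 to 7 samples (7 probe sets in 4 groups), 4 had a sample farther from the rest than Dixon's 95% critical value allows, where chance gives about 1 in 20 groups. Of these, 3 came from sample 5 of non-affected humerus. CPN1 read 10.01 in it on Ssc.25224.1.A1_at, where the other 5 samples reached at most 7.68. It read 8.75 on Ssc.25224.2.S1_at, where the others reached at most 6.55. AGT read 10.96 in it, where the others reached at most 8.34. The fourth was KNG1 on Ssc.24401.1.A1_at in sample 5 of non-affected femur, at 6.01, where the other 3 lay between 5.78 and 5.81.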

How the results depend on the processing

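No member that was tested became a call under any alternative setting or with any sample left out, in either joint. The femoral status difference of CPN1 on Ssc.25224.2.S1_at ran from −0.21 to 0.16 over the left-out samples, and that of AGT from −0.070 without sample 4 of non-affected femur (−0.069 without sample 4 of affected femur) to 0.75. The femoral status calls over all genes numbered 192, and 59 with array weights, 600 with all arrays as separate samples, 4 with the 2 femoral groups alone (fewer samples for the variance), and 53 to 450 with single samples left out. The difference between joints in status effect had 45 calls, 21 with array weights, 220 with all arrays separate, and 15 to 98 with single samples left out. The cause was not tested. In non-affected cartilage the share of site calls with femur higher was 31.6%, and 55.1% and 57.7% under quantile normalisation and median centring; in affected cartilage it was 36%, and 57.1% and 58.2%. The alternatives for the pathway lists were chosen after seeing the data: under quantile normalisation the angiotensin list had 0 calls for femoral status, against 1 as deposited, and 3 for joint in non-affected cartilage, against 6. No paired analysis was possible because the labels do not name the sibs and their sample names carry no shared numbers. Signal near the floor limits 2 of the 4 KNG1 probe sets.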
